A study of Emberiza melanocephala with 4 samples.

Results

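Levels are described here for 6 G-protein-coupled receptor genes in the black-headed bunting (Emberiza melanocephala), a songbird that migrates with the seasons. They are the serotonin receptor HTR1B, the dopamine receptor DRD1, the somatostatin receptor SSTR1, the orphan receptors GPR63 and GPR27, and the sphingosine-1-phosphate receptor S1PR1. They were taken by gene symbol from the deposited transcript assemblies, in which 278 genes carry a symbol, and all 6 were found in at least 1 of the 4 libraries. The genes were chosen by their listing and their FPKM (fragments per kilobase of transcript, scaled to sequencing depth) in the libraries labelled long day (LD), with earlier results of these data in view, so where they are listed and how far their levels differ is a description and was not tested. All 6 stood in LD libraries, and none in a library labelled short day (SD). Of all 278 genes with a symbol, 193 (69.4%) likewise stood in LD libraries alone.

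G-protein-coupled receptors span the cell membrane and pass an outside signal to a trimeric G protein within the cell. In mammals, HTR1B and SSTR1 act through inhibitory G proteins that lower cyclic AMP, and HTR1B sits on nerve endings, where it limits transmitter release. DRD1 acts through stimulatory G proteins that raise cyclic AMP and is the main dopamine receptor type of the mammalian striatum. GPR27 belongs to a small group of conserved orphan receptors that also holds GPR85, and GPR63 is an orphan receptor found in mammalian brain. S1PR1 binds a lipid of blood plasma and is known from endothelium, where it keeps vessel walls tight, and from lymphocytes leaving lymphoid organs.

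The birds were caught in the wild, and total RNA of hypothalamus and liver was sequenced by pyrosequencing, which gives few, long reads. Each of the 4 groups (hypothalamus and liver, each in SD and in LD) is 1 library, so no value has a replicate error and no difference has a replicate check. The labels give no age, no number of birds per library and no further treatment. The seasonal state recorded in the labels contradicts the title for 2 of the 4 libraries, LD hypothalamus and SD liver, and the headers of both hypothalamus files call the tissue brain. Groups follow the titles, and each library is named by its label.

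Marker genes also went against some tissue labels. Of 16 neuron markers, 4 were listed in the library labelled LD liver and 2 in LD hypothalamus, with summed levels of 561 and 329 FPKM, and none in SD hypothalamus or SD liver. Of 16 hepatocyte markers, the lipoprotein component APOA1 was the 1 listed, with 655 FPKM in SD liver, 327 in SD hypothalamus and 20.9 in LD liver. The SD liver value belongs to an assembled transcript joined to the APOA1 locus, with a coverage of 13.6, and the others to the reference transcript. The SD liver level therefore cannot be set against the others as like for like. Albumin was listed in no library, so the hepatocyte part of this rests on APOA1 alone. Whether APOA1 marks liver in this bird was not tested. Genes were found by symbol, so any without one in every library would be missed here and in the lists that follow. The value of a list gene sums all transcripts joined to its locus by overlap, including assembled ones without a symbol. Depth was low, at 15.8, 13.3, 20.8 and 17.8 aligned megabases in SD hypothalamus and LD hypothalamus, then SD liver and LD liver. In that order the libraries listed 36, 131, 67 and 186 of the 278 genes with a symbol (12.9%, 47.1%, 24.1% and 66.9%).

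HTR1B stood at 13.5 FPKM in LD hypothalamus, against 105 FPKM in LD liver, and neither SD library listed it. The gene lies on the minus strand of scaffold JH603208.1 (1176522 to 1177655; ENSFALG00000014659), in the flycatcher build FicAlb_1.4 that the files use. In LD hypothalamus the value rested on 202.5 aligned bases, a coverage of 0.179, so that at most 17.9% of its positions could have been read. In LD liver it rested on 2111 aligned bases, a coverage of 1.86. Among genes with a symbol HTR1B ranked 105 of 131 in LD hypothalamus and 23 of 186 in LD liver.

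DRD1, the other monoamine receptor, was listed in LD liver alone, at 10.4 FPKM (scaffold JH603211.1, plus strand, 5222447 to 5223805; ENSFALG00000014407). This was the lowest level among the 9 listings of the 6 genes. It rested on 252 aligned bases, a coverage of 0.185, and ranked 148 of 186. The aligned bases could cover at most 18.5% of the gene.

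SSTR1, a receptor for the peptide somatostatin, stood at 43.8 FPKM in LD hypothalamus, against 58.6 FPKM in LD liver (scaffold JH603186.1, plus strand, 11592260 to 11593405; ENSFALG00000015219). These levels rested on 666 and 1194 aligned bases. It was the highest of the 6 genes in LD hypothalamus, ranking 43 of 131, and ranked 40 of 186 in LD liver. Neither library labelled SD listed it.

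S1PR1 had 31.3 FPKM in LD hypothalamus, from 473 aligned bases, and 111 FPKM in LD liver, from 2245 aligned bases (scaffold JH603197.1, plus strand, 2388217 to 2389356; ENSFALG00000014446). It was the highest of the 6 genes in LD liver, ranking 21 of 186, and ranked 64 of 131 in LD hypothalamus. Its coverage in LD liver, 1.97, was the highest of the 9 listings. SD hypothalamus and SD liver did not list it.

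The orphan receptors each stood in a single library. GPR63 had 18.6 FPKM in LD hypothalamus from 311 aligned bases and ranked 92 of 131 (scaffold JH603179.1, plus strand, 16786657 to 16787916; ENSFALG00000014703). GPR27 had 56.0 FPKM in LD liver from 1121 aligned bases and ranked 47 of 186 (scaffold JH603195.1, plus strand, 6727671 to 6728795; ENSFALG00000014506). GPR63 was thus the 1 gene of the 6 missing from the list of LD liver, and GPR27 and DRD1 the ones missing from that of LD hypothalamus.

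**Figure D1:**
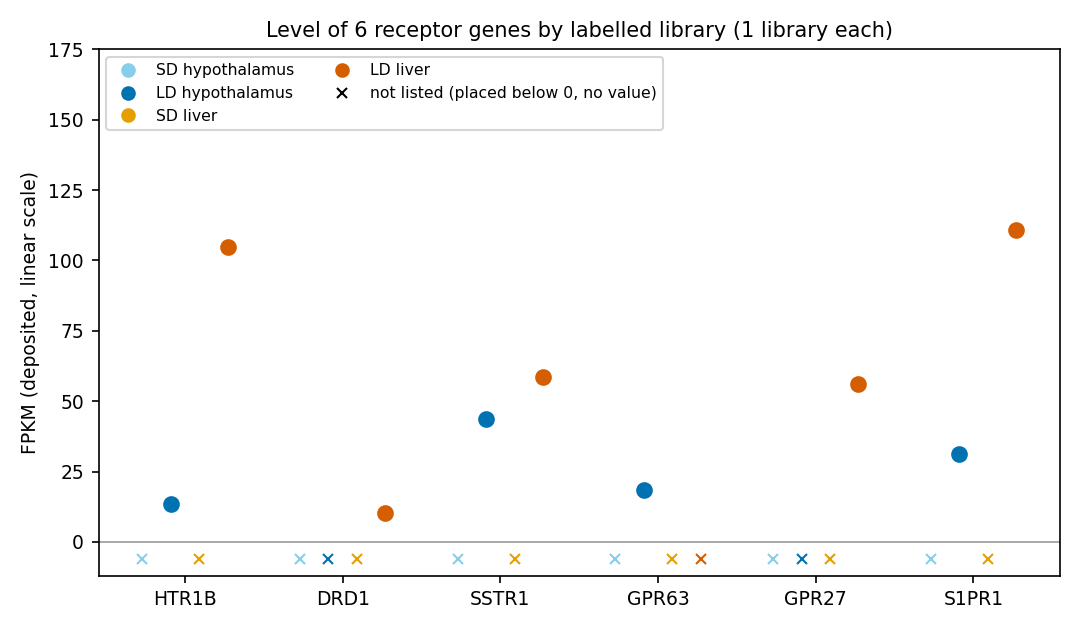
Level of the 6 receptor genes (FPKM, linear axis) in the 4 labelled libraries, 1 point per gene and library, with crosses below 0 where a gene is not listed and has no value. The LD liver points of HTR1B and S1PR1, at 105 and 111 FPKM, stand highest, and no gene has a point for SD hypothalamus or SD liver. Of all genes with a symbol, 69.4% were listed in LD libraries alone.

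In order of level, LD hypothalamus held SSTR1, S1PR1, GPR63 and HTR1B, from 43.8 down to 13.5 FPKM, and LD liver held S1PR1, HTR1B, SSTR1, GPR27 and DRD1, from 111 down to 10.4 FPKM. FPKM is divided by the listed transcript length, here taken as coding length. Bunting reads that fail to align to the flycatcher reference can lower genes unequally, so the order is of listed levels only. Without replicates no neighbours in either order can be called different. The pairs S1PR1 and HTR1B, and SSTR1 and GPR27, lay closest in LD liver. HTR1B moved from the last place of the 4 in LD hypothalamus to the second of the 5 in LD liver.

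The comparison of LD liver with LD hypothalamus was the 1 of the 4 comparisons in which any of these genes had 2 values. Of the 142 loci listed in both libraries, 20 (14.1%) were at least 2-fold higher in LD liver and 18 (12.7%) at least 2-fold lower, around a median log2 ratio of 0.03. HTR1B was 7.78-fold higher in LD liver, a log2 ratio of FPKM plus 1 of 2.87, and held place 3 of the 142 loci. S1PR1 was 3.54-fold higher, a log2 ratio of 1.79, and held place 8. SSTR1 was 1.34-fold higher, a log2 ratio of 0.41 that stayed within 2-fold, and held place 45. The median of these 3 log2 ratios was 1.79. They were picked with these values known, so nothing is read from their count against the share over all loci. Over loci listed in both libraries of the remaining comparisons, none of which held any of the 6 genes, the share at least 2-fold apart was 34.4% of 32 (hypothalamus by season), 37.7% of 53 (liver by season) and 20.9% of 67 (SD pair), and it was 26.8% in the LD pair. These names follow the titles. Since the recorded season contradicts 2 titles and markers go against some tissue labels, whether a contrast, that of LD liver with LD hypothalamus included, compares tissues, seasons or neither cannot be told apart.

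**Figure D2:**
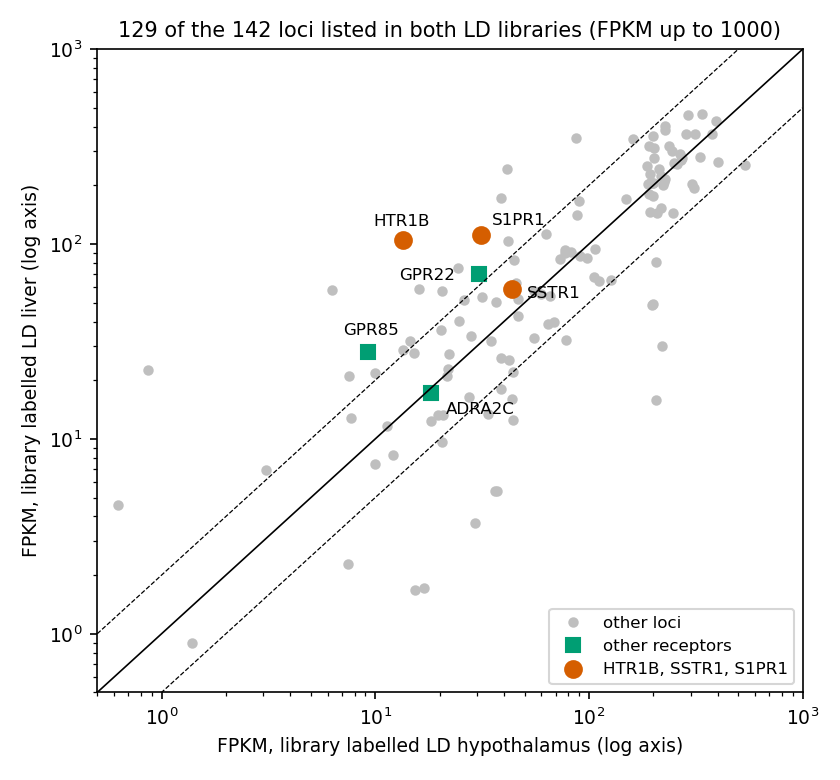
FPKM in LD liver (vertical) against LD hypothalamus (horizontal), both on log axes, for 129 of the 142 loci listed in both, those up to 1000 FPKM, with the solid line at equal levels and the dashed lines at 2-fold. HTR1B and S1PR1 lie above the upper dashed line, SSTR1 between the lines, and the other receptors of the lists (squares) between the lines or above them.

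All 3 ratios were formed on the same reference transcript in both libraries, so a difference in transcript length does not enter them. The HTR1B ratio is the least secure, since its lower value rests on 202.5 aligned bases. It is also the 1 listing of the 9 whose aligned bases are not a whole number within 0.1. STMN2, a tubulin-binding protein of neurons, and SLC32A1, the vesicle carrier of inhibitory transmitters, had 46.9 and 26.8 FPKM in LD liver and no entry in the other libraries. Neuron markers listed in both LD libraries went either way. SNAP25, a protein of vesicle fusion, had 290 FPKM in LD hypothalamus and 462 in LD liver, while the axon growth protein GAP43 had 38.8 and 26.1. Their part in the receptor differences was not tested. In bulk tissue, fewer cells of a type and less RNA per cell cannot be told apart.

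**Figure D3:**
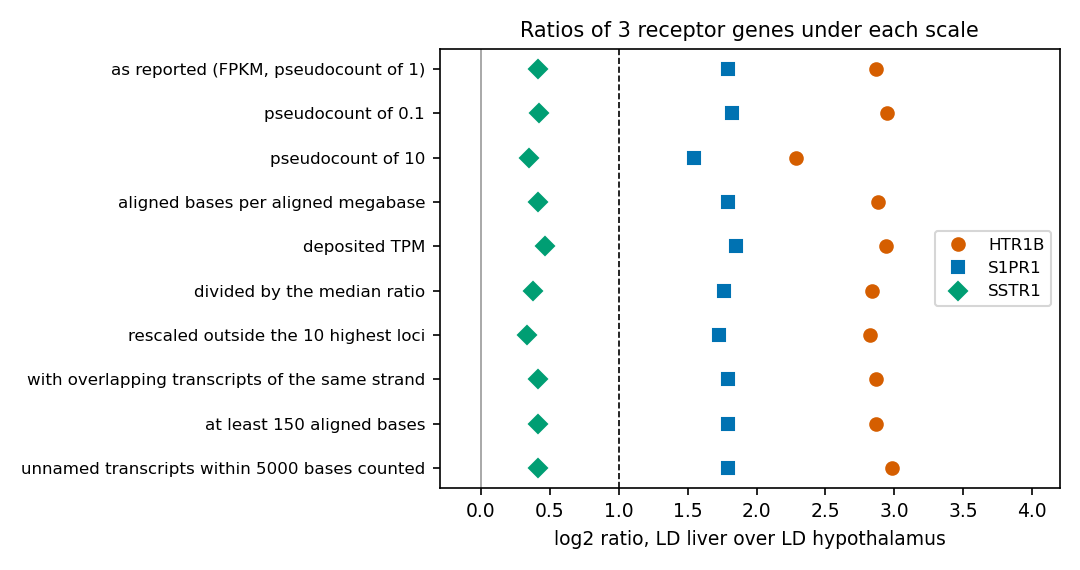
Log2 ratio of LD liver over LD hypothalamus (horizontal axis) for HTR1B, S1PR1 and SSTR1 as reported and under 9 other scales or filters, 1 per row, with the dashed line at a 2-fold difference. HTR1B ranges from 2.29 to 2.98, S1PR1 from 1.55 to 1.85 and SSTR1 from 0.34 to 0.46. The 2.98 pools aligned bases of HTR1B and a nearby fragment over their joined length, and some rows repeat the reported value.

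No long-day against short-day ratio could be formed for any of the 6 genes, because neither library labelled SD listed them. Being listed in LD libraries alone was common, at 193 of the 278 genes with a symbol (69.4%), so this feature does not set the 6 receptors apart. A missing entry is not a level of 0. Outside the 10 highest loci, SD hypothalamus held 8.69, LD hypothalamus 8.42, SD liver 11.0 and LD liver 11.9 aligned megabases. The part of depth in the missing entries was not tested. Single-exon reference transcripts with 202.5 or fewer aligned bases were listed in every library. They were 9 of 33 in SD hypothalamus, 41 of 93 in LD hypothalamus, 22 of 49 in SD liver and 43 of 121 in LD liver. The LD hypothalamus count includes HTR1B itself, and the counts of all libraries but LD liver include entries with 0 aligned bases. Single-exon reference transcripts in the length range of the 6 genes (1125 to 1359 bases) numbered 17 in LD hypothalamus and 17 in LD liver, 5 in SD liver and 0 in SD hypothalamus. These counts include the chosen genes, 4 in LD hypothalamus and 5 in LD liver, so the LD counts are raised by the choice. The 5 of SD liver had 3.03 to 16.6 FPKM.

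The 6 genes had several features in common besides the listing and FPKM used to choose them. They were also chosen as receptors, so these features may not be independent of the choice. Each was represented by 1 reference transcript of 1 exon, so every listed position is exonic. The lengths ran from 1125 to 1359 bases and are all multiples of 3, and they are taken here as coding length. As to position, each lies on its own scaffold, and 5 of the 6 are on the plus strand. Shares of scaffold and strand over all genes are not given here, so nothing is read from position. Of all listed genes with a symbol, 118 of 278 (42.4%) had single-exon reference transcripts only. Of the 12 other listed receptors described below, 11 (91.7%) had 1 exon, so this does not set the 6 apart from them. Of single-exon reference transcripts in LD liver, 109 of 121 had a length that is a multiple of 3.

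Coverage was low at every listing, from 0.179 to 1.97. Transcripts that StringTie assembled without a reference had a lowest coverage of 2.5 in LD hypothalamus and in LD liver, so all 9 listings lay below the level at which a transcript outside the annotation appears. Single-exon reference transcripts had a median coverage of 0.272 in LD hypothalamus, and there SSTR1 (0.581) and S1PR1 (0.415) were above it and GPR63 (0.247) and HTR1B (0.179) below it. In LD liver the median was 0.374, and HTR1B (1.86), S1PR1 (1.97), SSTR1 (1.04) and GPR27 (0.996) were above it and DRD1 (0.185) below it. Within a library, coverage is FPKM on another scale, and FPKM was used to choose the genes. Nothing is therefore read from their places against these medians.

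**Figure D4:**
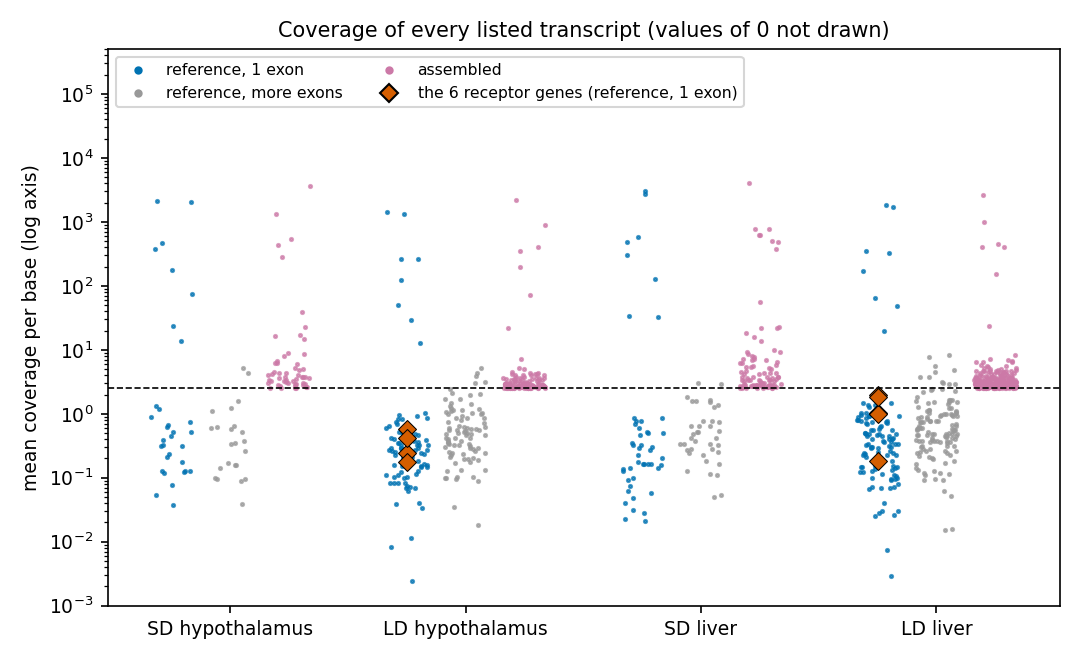
Mean coverage per base (log axis) of every listed transcript above 0 in each labelled library, split into reference transcripts of 1 exon, reference transcripts of more exons and assembled transcripts, with the 6 receptor genes as diamonds. The dashed line marks a coverage of 2.5, and all 9 diamonds lie under it, from 0.179 to 1.97. The median of all reference transcripts lies under it as well, at 0.352 in LD hypothalamus and 0.476 in LD liver.

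One unnamed transcript lay near a receptor gene. It was an assembled fragment of 299 bases without a strand on scaffold JH603208.1 (1174490 to 1174788), listed in LD liver at 146 FPKM from 778 aligned bases. It stands 1733 bases beyond the 3′ end of HTR1B, and whether it belongs to that gene was not tested. No other transcript was listed within 60000 bases of any of the 6 genes in any library.

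Other receptors were looked for in 5 lists of 172 receptor genes, which include the 6. In all, 18 were listed somewhere, 15 of them in LD liver, 9 in LD hypothalamus, 1 in SD hypothalamus and 0 in SD liver. In that order, the libraries listed 66.9%, 47.1%, 12.9% and 24.1% of all 278 genes with a symbol. Over all these genes, 69.4% stood in LD libraries alone and 42.4% had single-exon reference transcripts only. The lists were set with earlier results known, so nothing particular to receptors is read from the counts. Of the 12 that are not among the 6 genes, 11 stood in LD libraries alone and 11 had 1 exon. The exceptions were FZD1, a Wnt receptor, with 8.15 FPKM in SD hypothalamus and 6.54 in LD liver, and ADRA1D, an adrenergic receptor of smooth muscle, with 2 exons and 5.18 FPKM in LD liver.

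Among monoamine and acetylcholine receptors, 7 of 38 were listed. HTR1F, a serotonin receptor related to HTR1B, had 16.8 FPKM in LD hypothalamus and no entry for LD liver. ADRA2C, an inhibitory adrenergic receptor, had 18.3 FPKM in LD hypothalamus and 17.1 in LD liver. The muscarinic receptors CHRM5 and CHRM3 were listed in LD liver alone, at 45.7 and 16.7 FPKM. No other dopamine receptor than DRD1 was listed.

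Of 38 peptide receptors, SSTR1 and SSTR3 were the ones listed, and SSTR3 had 2.94 FPKM in LD hypothalamus from 47 aligned bases, which is not secure. Of 11 lysophospholipid receptors, S1PR1 was joined by S1PR3, another receptor of the same lipid, at 12.8 FPKM in LD liver. The LD liver level of S1PR1 thus stood above that of S1PR3, and S1PR3 was not listed in LD hypothalamus.

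Of 32 orphan receptors, 5 were listed. GPR85, the relative of GPR27, had 9.25 FPKM in LD hypothalamus and 28.0 in LD liver, where GPR27 had 56.0. GPR22 had 30.5 and 70.3 FPKM. GPR12 stood in LD liver alone, at 8.56 FPKM. P2RY1, a receptor for ADP from the list of other receptors, had 71.2 FPKM in LD liver alone.

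Apart from HTR1B, S1PR1 and SSTR1, whose ratios are given above, 3 receptors of the lists had a value in both LD libraries. GPR85 stood at a log2 ratio of LD liver over LD hypothalamus of 1.50, GPR22 at 1.18 and ADRA2C at -0.09. Of these 3, 2 were at least 2-fold higher in LD liver, where 14.1% of the 142 loci were, and their median was 1.18 where that of all loci was 0.03. With 3 genes from lists set with earlier results known, nothing particular to receptors is read from this. The values rest on few bases, with 137 for GPR85 and 327 for ADRA2C in LD hypothalamus, and GPR85 would not pass a minimum of 150 aligned bases.

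**Figure D5:**
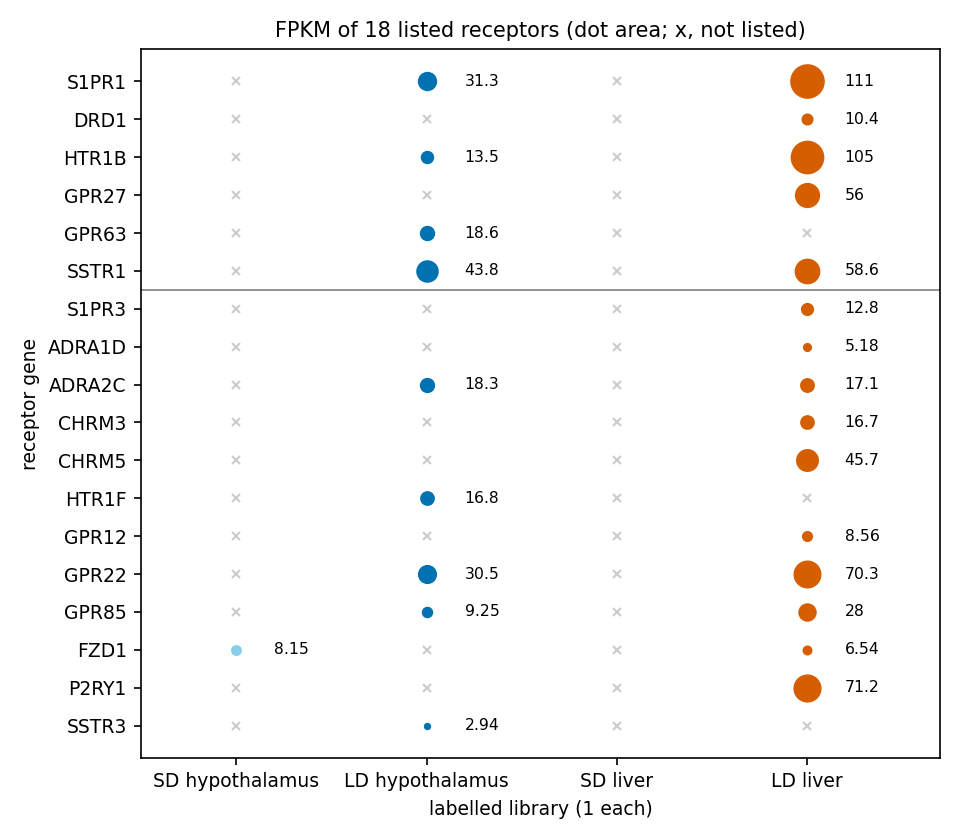
FPKM (dot area and printed number) of the 18 listed receptor genes in the 4 labelled libraries, with the 6 genes above the horizontal line and crosses where a gene is not listed. LD liver holds 15 of the receptors and LD hypothalamus 9, while SD hypothalamus holds FZD1 alone and SD liver holds none. In that order, the libraries listed 66.9%, 47.1%, 12.9% and 24.1% of all genes with a symbol.

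Genes of the signalling path behind the receptors were looked for in lists of their own. Of 27 G protein subunits, 3 were listed, all of them in LD liver. GNB1, a beta subunit shared by many receptors, had 150 FPKM in LD hypothalamus and 171 in LD liver, a log2 ratio of 0.19. GNAQ and GNA11, alpha subunits that activate phospholipase C, had 42.4 and 14.9 FPKM in LD liver and were not listed elsewhere. Of 41 effector genes, KCNJ6, a potassium channel opened by G protein beta-gamma subunits, was the 1 listed, at 9.68 FPKM in LD hypothalamus. None of 30 receptor regulators, such as arrestins and RGS proteins, was listed in any library. The same held for 23 genes for making or carrying serotonin, dopamine, somatostatin or sphingosine-1-phosphate. The libraries together listed 278 genes with a symbol, so a missing entry is not read as absent expression.

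Markers of vessels and glia were set beside S1PR1, which is known from endothelium. Of 15 endothelium markers, CLDN5, a tight-junction protein, was the 1 listed, at 13.9 FPKM in LD hypothalamus. It rested on 120 aligned bases there, a coverage of 0.184, and would not pass a minimum of 150 aligned bases. No endothelium marker was listed in LD liver, where S1PR1 had 111 FPKM. Of 12 glia markers, 3 had a value in both LD libraries and none in an SD library. Their summed levels were 188 FPKM in LD hypothalamus and 388 in LD liver. The LD liver sum includes 244 FPKM from an assembled transcript joined to the SPARC locus, so the sums are not like for like. SPARC, a matrix glycoprotein of astrocytes and vessel cells, had 41.5 FPKM in LD hypothalamus from reference transcripts and 244 in LD liver from that assembled transcript. The SPARC levels are therefore not like for like. In the same order of libraries, the glial and neuronal membrane protein GPM6B had 91.2 and 87.1 FPKM. The gap junction protein GJA1 had 55.4 and 57.2 FPKM. Their part in the level of S1PR1 was not tested.

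The genes closest in level to HTR1B, SSTR1 and S1PR1 were sought among the 62 other genes with a symbol listed in just the LD libraries, by distance in log2 of FPKM plus 1 over those 2 libraries. For HTR1B they were CHST1, a sulfotransferase (16.0 FPKM in LD hypothalamus and 58.5 in LD liver), LRRC4C, a synaptic adhesion protein, and S1PR1 itself, at distances of 0.86, 1.03 and 1.16. For S1PR1 they were LINGO1, a leucine-rich-repeat protein of neurons (44.5 and 82.6 FPKM), GPR22 and LRRTM1, a synaptic protein, at 0.65, 0.65 and 0.99. For SSTR1 they were UBL3, a ubiquitin-like protein (46.8 and 52.4 FPKM), FAM32A and GJA1, at 0.18, 0.33 and 0.34. With 2 libraries this measures likeness of level only.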

How the data were processed

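Each library has 1 deposited transcript assembly, made with StringTie 1.3.3b on a trimmed alignment, with the collared flycatcher annotation of Ensembl 89 (build FicAlb_1.4) as guide, per the file headers. For the aligner, the name is not given in the sources used here. Per transcript, the authors' files give coverage, FPKM and TPM, and counts of reads were not used here. Because the reference is another songbird, bunting reads that differ from it can fail to align, and strand is not stated to be kept.

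FPKM of transcripts carrying each gene's name was summed with Python 3.11.15. Aligned bases are coverage times length, and aligned megabases follow from the ratio of coverage to FPKM. For other genes, transcripts that overlapped on 1 strand or shared a reference gene were joined into 750 loci. Ratios are log2 of FPKM plus 1, which understates changes of low genes, for loci listed in both libraries, and 2-fold was called. No test was made, with 1 library per group. Intervals for single-exon shares (exact binomial, 95%) cover counting error only. The code was tested on simulated assemblies.

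The 6 genes and the 13 gene lists were chosen with earlier results of these data known. Named genes are the 6, each listed gene of those lists and the 3 genes nearest in level. Sequences were not used here, and 1 listed gene is not reported here. Another scale, filters on aligned bases or coverage, and other pseudocounts were tried.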

Additional observations from a re-analysis of the deposited data

How the results depend on the processing

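The log2 ratios of HTR1B, S1PR1 and SSTR1 between the LD libraries kept their direction and their side of 2-fold under 9 alternatives each, of which counting unnamed transcripts within 5000 bases was chosen after seeing the data. They ranged from 2.29 to 2.98, from 1.55 to 1.85 and from 0.34 to 0.46. The 2.98 of HTR1B pools aligned bases of gene and nearby fragment over their joined length in LD liver. A sum of their FPKM would give a higher ratio. Joining overlapping transcripts and the minimum of 150 aligned bases left all 3 ratios unchanged. Counting nearby transcripts left those of S1PR1 and SSTR1 unchanged. Most of the other alternatives rescale the same values, so the alternatives are no independent check. Asking for a coverage of at least 1 left 0 of 4 genes in LD hypothalamus and 3 of 5 in LD liver. The median coverage of all reference transcripts was 0.352 and 0.476 in these libraries, so most of them would fail as well. Coverage also follows the FPKM used to choose the genes, so nothing is read from these counts. A minimum of 150 aligned bases removed none of the 6 genes. In the LD pair it took the loci at least 2-fold apart from 38 of 142 to 25 of 121. With unlisted loci at 0, the loci at least 2-fold apart rose from 11 to 330 (hypothalamus by season), 20 to 559 (liver by season), 14 to 161 (SD pair) and 38 to 506 (LD pair). The number of loci compared rose as well, from 142 to 611 in the LD pair. With a pseudocount of 10 the SD pair had 9. Single-exon transcripts were 58.9% of reference transcripts in SD hypothalamus (interval 45.0% to 71.9%), and 44.1% among genes with a symbol. No paired analysis was possible because each group has 1 library. Depth limits all of this: 4 of the 9 listings rest on fewer than 500 aligned bases.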

Other observations

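Receptor genes outside the lists, picked after their values were seen, showed both kinds of listing. GPER1, a membrane receptor for estrogen, had 13.5 FPKM in LD hypothalamus and 28.6 in LD liver and was listed in neither SD library. GPR146, an orphan receptor, was listed in SD hypothalamus alone, at 19.7 FPKM from 313 aligned bases. Both are single-exon genes, of 1074 and 1005 bases.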
